A study of Mus musculus with 12 samples.

Results

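The genes described here are 40 marker genes of neurons that lie around the somatosensory thalamus, out of 55359 genes counted in newborn mouse brain tissue. They were chosen by name: 17 mark prethalamic and GABAergic neurons, 8 habenular, 8 telencephalic and 7 hypothalamic neurons, and each symbol matched 1 Ensembl gene. Each set was read in every library as a measure of how much tissue from beyond the border of the dissection it may hold. The study sequenced polyadenylated RNA from the ventroposterior medial nucleus (VPM), which passes touch from the face on to the cortex. All tissue was taken on postnatal day 0, by hand from slices 300 µm thick. The 3 groups were the lip territory (ALBSF) of control pups, called Ctrl ALBSF, the whisker territory (PMBSF) of control pups, called Ctrl PMBSF, and the lip territory of treated pups, called embWPC ALBSF. What embWPC stands for is not spelled out, and no strain or genotype is given. Each group had 4 libraries, each a pool of 5 brains, so that a replicate is a pool and single pups cannot be read.

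In the developing forebrain the thalamus is built almost wholly of glutamatergic relay neurons, and in rodents the VPM holds very few inhibitory cells of its own. The prethalamus, which lies beside it, gives rise to the GABAergic reticular nucleus and zona incerta. The habenula sits above the thalamus, the hypothalamus below it, and the cortex and striatum of the telencephalon lie further out.

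The libraries held 28457046 to 34512840 counts. Levels are given as CPM, counts scaled to a common library total after adjusting the libraries by edgeR's TMM method, and 3 counts correspond to 0.0786 to 0.105 CPM. Values are listed for pools 1 to 4 of a group in that order throughout. A list of 14 thalamic relay neuron genes summed to 2577 to 3308 CPM in the 12 libraries. No library of a neighbouring region was at hand to set this against. The sum alone therefore does not test where the tissue came from, nor does it show which thalamic nucleus or territory was taken. In the same libraries the 17 prethalamic and GABAergic genes summed to 13.8 to 90.0 CPM. A filter on low counts kept 17501 genes for testing and 30 of the 40 members. It kept 14 of the 17 prethalamic and GABAergic, 7 of the 8 habenular, 7 of the 8 telencephalic and 2 of the 7 hypothalamic genes. RNA was measured in bulk, so fewer cells of a type and less RNA per cell cannot be told apart.

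Very few members differed between groups. Ctrl PMBSF was set against Ctrl ALBSF for the difference between whisker and lip territories at birth. There 1 of the 30 members tested passed an adjusted p of 0.05 (edgeR's quasi-likelihood test with Benjamini-Hochberg adjustment over all 17501 genes), against 1.62% of all genes. That gene was Nwd2. With the pool number as a replicate block, which pairs the control libraries, 2 members passed (Nwd2 and Sp9), and calls over all genes rose from 284 to 857. For the treatment within the lip territory, embWPC ALBSF was set against Ctrl ALBSF, and 0 of 30 members passed, against 0.0629% of all genes. Setting embWPC ALBSF against Ctrl PMBSF gave 0 of 30 members, against 0.00571% of all genes. At an unadjusted p under 0.05 the counts were 2, 4 and 5 of 30 members in these 3 comparisons, against 11.8%, 9.22% and 9.47% of all genes. DESeq2 called 1 member in the control comparison, 0 in embWPC ALBSF against Ctrl ALBSF and 1 in embWPC ALBSF against Ctrl PMBSF, and limma-voom called 1, 0 and 0. The member median log2 differences were -0.05, -0.32 and -0.32, beside medians over all genes of 0.00, -0.01 and -0.02. Negative differences were found for 18, 25 and 24 of 30 members and for 49%, 52.5% and 53.4% of all genes. The comparisons share libraries, so their values are not independent of each other.

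The prethalamic and GABAergic genes varied far more between pools of the same group than between groups. Their summed level was 90.0, 49.1, 35.9 and 13.8 CPM in Ctrl ALBSF, 60.9, 76.8, 61.1 and 20.9 in Ctrl PMBSF, and 19.2, 21.9, 25.5 and 62.6 in embWPC ALBSF. The highest and the lowest of all 12 libraries were thus 2 pools of the same control group, 6.52-fold apart. Within Ctrl PMBSF the span was 3.68-fold and within embWPC ALBSF 3.27-fold. In both control groups pool 4 was the low one, while in embWPC ALBSF pool 4 stood high and the other 3 pools lay between 19.2 and 25.5 CPM. Pool numbers were taken to pair the control libraries, so the low pool 4 of both control groups is not 2 independent observations. Those of embWPC ALBSF did not pair with either control group. The ranges of all 3 groups overlapped.

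**Figure D1:**
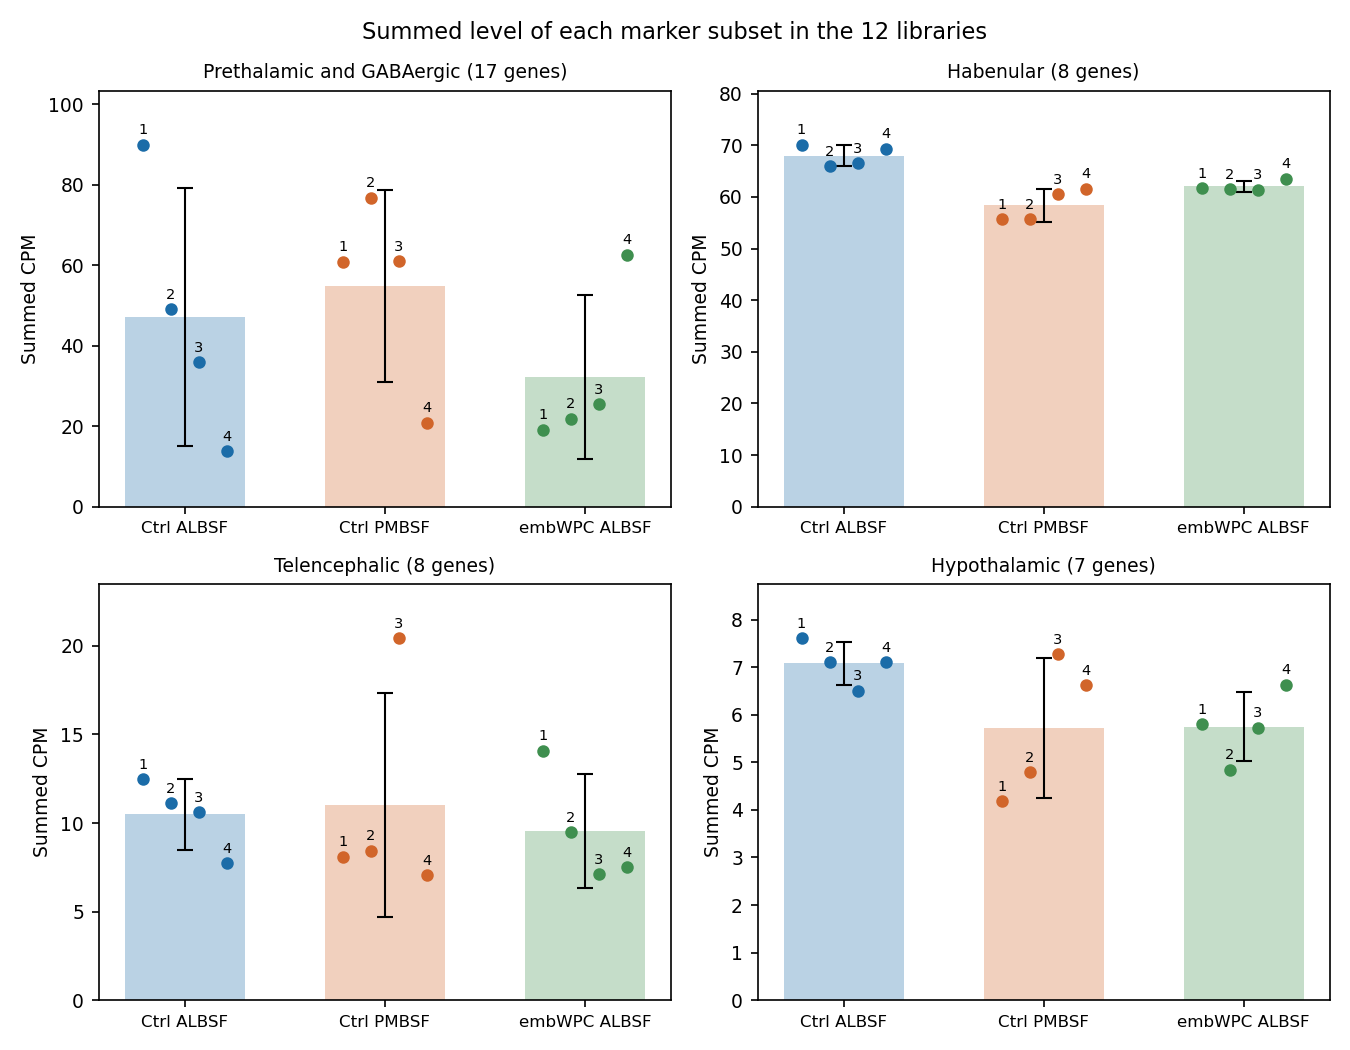
Summed CPM of the 4 marker sets in the 12 libraries; points are libraries with their pool number, bars the group mean and whiskers 1 SD (n = 4). The prethalamic and GABAergic sum ran from 13.8 to 90.0 CPM, the habenular sum only from 55.6 to 70.1 CPM, and Ctrl PMBSF 3 stood at 20.4 CPM in the telencephalic panel.

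Gad1 and Gad2 encode the glutamate decarboxylases that make GABA. Gad1 stood at 14.7, 6.61, 3.70 and 1.06 CPM in Ctrl ALBSF, 5.70, 12.8, 8.31 and 2.67 in Ctrl PMBSF, and 2.08, 3.20, 2.98 and 9.28 in embWPC ALBSF. Gad2 stood at 8.37, 3.41, 3.94 and 0.959 CPM in Ctrl ALBSF, 3.48, 6.14, 7.47 and 2.23 in Ctrl PMBSF, and 1.14, 1.81, 2.52 and 6.11 in embWPC ALBSF. Both enzymes were highest in Ctrl ALBSF 1 and lowest in Ctrl ALBSF 4 among the Ctrl ALBSF pools, and in embWPC ALBSF both were highest in pool 4. Their groups overlapped. Slc32a1, the transporter that loads GABA into vesicles, was near the detection limit with 0 to 8 counts per library and was not tested.

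The homeobox factors Isl1 and Six3 followed the same libraries. Isl1, a LIM-homeobox factor, stood at 8.93, 4.40, 2.32 and 0.397 CPM in Ctrl ALBSF, 2.57, 7.03, 4.28 and 0.911 in Ctrl PMBSF, and 0.503, 0.807, 1.49 and 6.81 in embWPC ALBSF. Its level in Ctrl ALBSF 1 was 22.5-fold that in Ctrl ALBSF 4. Six3, a homeobox factor of the ventral forebrain, stood at 9.20, 5.24, 3.42 and 0.860 CPM in Ctrl ALBSF, 3.89, 10.7, 6.94 and 1.16 in Ctrl PMBSF, and 1.04, 1.26, 2.71 and 9.38 in embWPC ALBSF. It too was high in Ctrl ALBSF 1, Ctrl PMBSF 2 and embWPC ALBSF 4, and low in pool 4 of both control groups. Because these 4 genes moved together over the libraries, the 250 bases before their annotated starts are shown, with the core of the homeodomain recognition sequence, TAAT on either strand (TAAT or ATTA), in capitals. The sequences are RefSeq's on GRCm38.p6, an older build than the one used for counting, and run 5′ to 3′ along the gene. Gad1 lies at chr2:70561879-70562128 on the plus strand, Gad2 at chr2:22622077-22622326 on the plus strand, Isl1 at chr13:116309689-116309938 on the minus strand and Six3 at chr17:85620584-85620833 on the plus strand.
Gad1: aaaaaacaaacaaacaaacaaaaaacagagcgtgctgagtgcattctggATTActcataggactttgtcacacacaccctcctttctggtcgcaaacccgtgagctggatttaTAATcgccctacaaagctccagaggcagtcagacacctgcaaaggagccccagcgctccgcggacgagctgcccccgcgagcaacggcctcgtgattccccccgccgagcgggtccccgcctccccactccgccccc
Gad2: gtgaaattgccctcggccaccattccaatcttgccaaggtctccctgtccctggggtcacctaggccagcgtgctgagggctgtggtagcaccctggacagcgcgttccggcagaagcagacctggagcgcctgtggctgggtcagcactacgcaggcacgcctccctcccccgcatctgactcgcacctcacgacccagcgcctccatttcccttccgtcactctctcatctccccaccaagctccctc
Isl1: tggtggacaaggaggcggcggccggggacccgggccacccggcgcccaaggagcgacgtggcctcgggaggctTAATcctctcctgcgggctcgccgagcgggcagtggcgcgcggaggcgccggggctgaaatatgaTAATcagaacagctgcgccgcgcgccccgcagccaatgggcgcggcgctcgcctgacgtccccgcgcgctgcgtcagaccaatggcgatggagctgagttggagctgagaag
Six3: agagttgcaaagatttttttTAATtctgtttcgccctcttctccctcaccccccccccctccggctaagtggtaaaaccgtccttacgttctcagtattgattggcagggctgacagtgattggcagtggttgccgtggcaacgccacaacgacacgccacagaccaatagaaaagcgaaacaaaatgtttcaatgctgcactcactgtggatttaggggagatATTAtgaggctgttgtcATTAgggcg

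The core was found at 2 places in the Gad1 stretch, 0 in that of Gad2, 2 in that of Isl1 and 3 in that of Six3. It is common: 54.9% of 32851 RefSeq promoters of this length hold it. The longer palindrome TAATTA is in 4.84% of them and in none of these 4 stretches. A match of these letters describes the sequence only.

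The DLX factors, which drive the GABAergic programme of the forebrain, were present at low levels. Dlx1 stood at 4.13, 2.43, 1.80 and 0.893 CPM in Ctrl ALBSF, 1.32, 2.36, 2.69 and 1.41 in Ctrl PMBSF, and 1.07, 0.614, 1.12 and 2.17 in embWPC ALBSF. Dlx2 stood at 3.41, 2.57, 1.18 and 0.364 CPM in Ctrl ALBSF, 0.918, 2.46, 1.74 and 0.502 in Ctrl PMBSF, and 0.336, 0.614, 0.827 and 1.94 in embWPC ALBSF. Both were highest in Ctrl ALBSF 1 of all 12 libraries. Dlx5 ran from 0.232 to 2.18 CPM, again with Ctrl ALBSF 1 on top, and Dlx6 was too low to test at 0 to 0.460 CPM. Dlx1 is overlapped by the antisense gene Dlx1as, Gad1 by Gad1os, Six3 by Six3os1 and Pax6 by Pax6os1. Strand handling is not stated for the counting, so reads of such pairs cannot be told apart.

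The peptide Sst and 3 other members followed the same pools. Sst, the neuropeptide somatostatin, stood at 10.1, 6.89, 4.39 and 1.26 CPM in Ctrl ALBSF, 6.24, 5.62, 6.24 and 2.17 in Ctrl PMBSF, and 2.31, 1.52, 1.72 and 3.33 in embWPC ALBSF. Ecel1, a membrane peptidase related to endothelin-converting enzyme, stood at 8.07, 2.46, 1.87 and 0.893 CPM in Ctrl ALBSF, 2.78, 5.62, 2.52 and 1.26 in Ctrl PMBSF, and 0.705, 1.36, 1.52 and 3.51 in embWPC ALBSF. Esrrg, the orphan nuclear receptor estrogen-related receptor gamma, stood at 6.52, 3.38, 3.32 and 1.46 CPM in Ctrl ALBSF, 3.70, 9.05, 5.57 and 2.07 in Ctrl PMBSF, and 1.54, 2.52, 3.54 and 8.80 in embWPC ALBSF. For all 3 genes Ctrl ALBSF 4 was the lowest control pool of its group and embWPC ALBSF 4 the highest treated one. Meis2, a homeobox factor of the TALE class, stood at 5.82, 4.75, 5.02 and 1.39 CPM in Ctrl ALBSF, 3.89, 4.39, 6.24 and 1.92 in Ctrl PMBSF, and 3.12, 2.39, 2.52 and 4.24 in embWPC ALBSF, with a smaller span but the same low pools. Lhx6, a LIM-homeobox factor of cortical interneurons, was low and did not follow these pools: it was highest of all 12 libraries in embWPC ALBSF 1 at 1.04 CPM, lowest in Ctrl PMBSF 1 at 0.135 CPM, and at 0.157 CPM in embWPC ALBSF 4. The zinc finger factor Sp8 was too low to test at 0 to 0.176 CPM.

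Pax6 followed the pools in a narrower range, and Sp9 had a high pool of its own. Pax6, a paired-box factor of the prethalamus and of neural progenitors, stood at 5.06, 4.01, 3.56 and 2.94 CPM in Ctrl ALBSF, 3.67, 4.76, 4.42 and 2.79 in Ctrl PMBSF, and 3.02, 1.84, 3.14 and 3.77 in embWPC ALBSF. Its levels kept to a narrow band in which the 3 groups overlapped. Sp9, a zinc finger factor of GABAergic precursors, stood at 2.25, 0.633, 0.242 and 0.397 CPM in Ctrl ALBSF, 21.3, 3.50, 2.04 and 0.628 in Ctrl PMBSF, and 0.470, 2.55, 0.695 and 1.70 in embWPC ALBSF. Ctrl PMBSF 1 alone was far above all other libraries, and it was not the pool with the most Gad1, Isl1 or Six3.

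**Figure D2:**
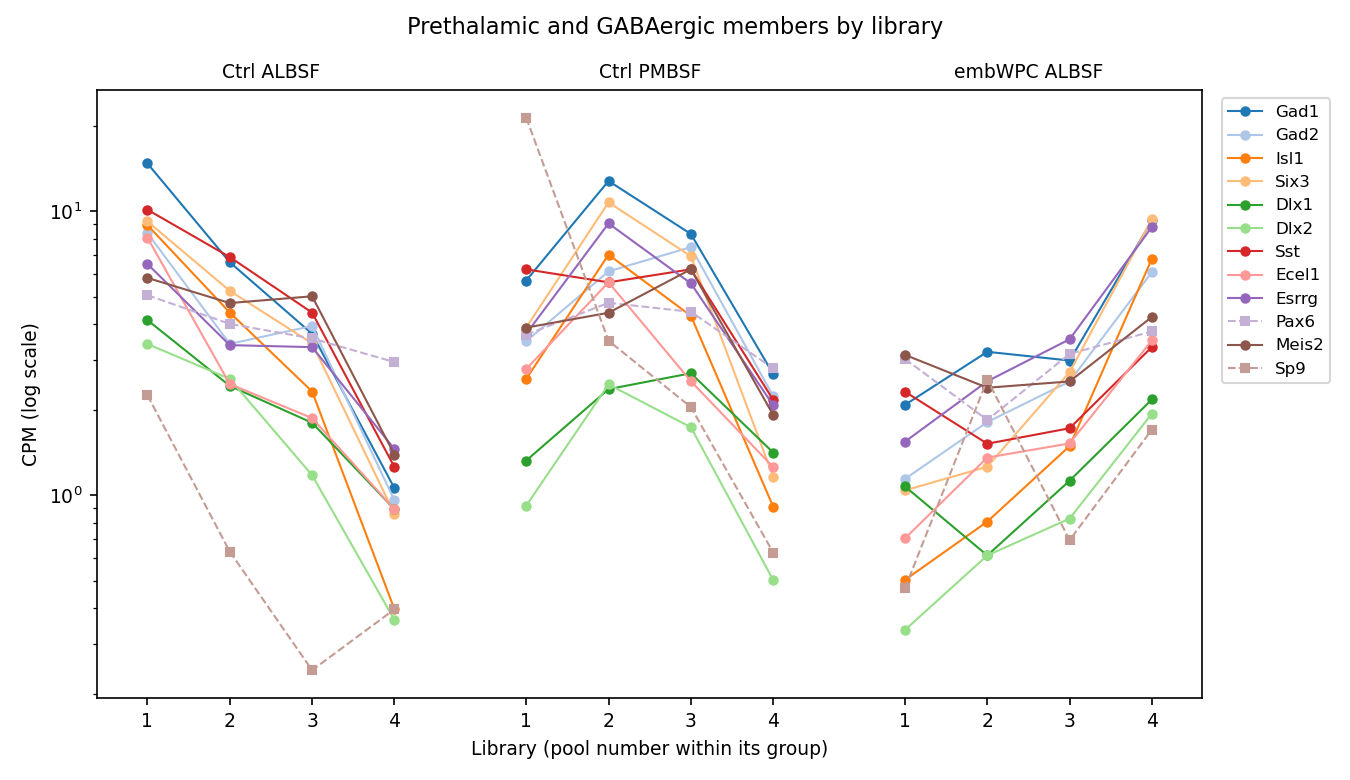
CPM on a log axis of 12 prethalamic and GABAergic members in each library; lines only join the values of a gene within a group, since pools have no order. Most genes were high in Ctrl ALBSF 1 and embWPC ALBSF 4 and low in pool 4 of both control groups, while Pax6 (dashed) stayed between 1.84 and 5.06 CPM and Sp9 (dashed) reached 21.3 CPM in Ctrl PMBSF 1.

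Counting over the set makes the shared order plain. Of the 14 genes tested, 14 had their highest Ctrl ALBSF value in pool 1 and 12 their lowest in pool 4. In Ctrl PMBSF, pool 2 was highest for 8 genes and pool 3 for 5, and pool 4 was lowest for 12. In embWPC ALBSF, pool 4 was highest for 12 and pool 1 lowest for 8. The spread between pools of a group, as edgeR's biological coefficient of variation, had a median of 55.8% over these 14 genes and 14.3% over all 17501 genes. The value for 13 of the 14 lay in the top 10% of all genes, with Pax6 the exception at 22.3%. Since low genes scatter more, each value was also set against the trend for genes of its level. It was more than 2 times the trend for 9 of the 14, which is so for 1.81% of all genes.

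**Figure D3:**
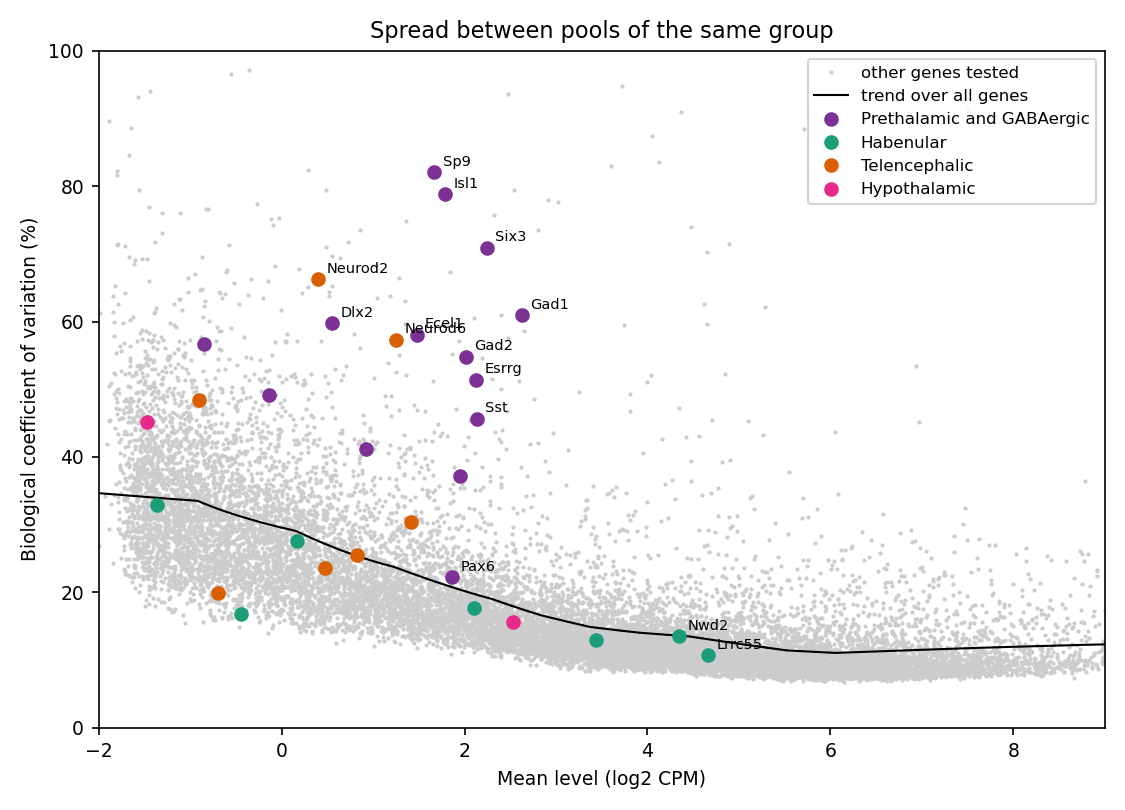
Biological coefficient of variation between pools of a group (%, y axis, drawn up to 100) against mean log2 CPM (x axis, drawn from -2 to 9) for all genes tested, with the members coloured by set and the trend over all genes as a line. Prethalamic and GABAergic genes lie well above the trend, Sp9 highest at 82.0%, while the habenular genes lie at or under it.

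Differences between groups were small beside this spread. Of the 14 genes, 0 passed in any comparison by edgeR's test, and 1, 1 and 2 had an unadjusted p under 0.05. DESeq2 and limma-voom also called 0 in each. In Ctrl PMBSF against Ctrl ALBSF the median log2 difference was -0.08, with 6 genes higher and 8 lower. In embWPC ALBSF it was -0.53 against Ctrl ALBSF (2 higher, 12 lower) and -0.63 against Ctrl PMBSF (1 higher, 13 lower). These medians moved with single pools and with the weighting of libraries. With limma-voom's quality weights the control median was 0.34 (11 higher, 3 lower), and with the replicate block 0.04 (8 higher, 6 lower). Without Ctrl ALBSF 1 the control median became 0.54 (13 higher, 1 lower) and that of embWPC ALBSF against Ctrl ALBSF 0.06 (8 higher, 6 lower). Without Ctrl ALBSF 4 they were -0.36 and -0.88, and the control median was 0.16 without Ctrl PMBSF 4. Without embWPC ALBSF 4 the medians of embWPC ALBSF were -1.26 against Ctrl ALBSF and -1.28 against Ctrl PMBSF. In embWPC ALBSF against Ctrl PMBSF the median was -0.32 without Ctrl PMBSF 2.

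Sst had the smallest p of the set in embWPC ALBSF against Ctrl ALBSF. Its mean was 2.22 ± 0.812 CPM in embWPC ALBSF, 5.67 ± 3.76 in Ctrl ALBSF and 5.07 ± 1.96 in Ctrl PMBSF (SD, n = 4 each). The log2 difference of embWPC ALBSF from Ctrl ALBSF was -1.34 ± 0.48 (SE) with an adjusted p of 0.398 by edgeR, and from Ctrl PMBSF -1.18 ± 0.48 with an adjusted p of 0.481. Without Ctrl ALBSF 1, the pool richest in this whole set, the first value was -0.89. Neither passed, and the groups overlapped.

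Sp9 gave the largest log2 difference among the members. Ctrl PMBSF was 2.96 ± 0.93 above Ctrl ALBSF, with an adjusted p of 0.169 by edgeR. Without Ctrl PMBSF 1 it was 1.21 with an adjusted p of 0.621. The difference passed when the pool number was fitted as a replicate block (2.69, adjusted p = 0.000414) and when genes were not filtered (2.96, adjusted p = 0.00462). Both of those fits hold Ctrl PMBSF 1. Against Ctrl PMBSF, embWPC ALBSF stood at -2.34 ± 0.88 with an adjusted p of 0.460, and at -0.58 without Ctrl PMBSF 1.

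**Figure D4:**
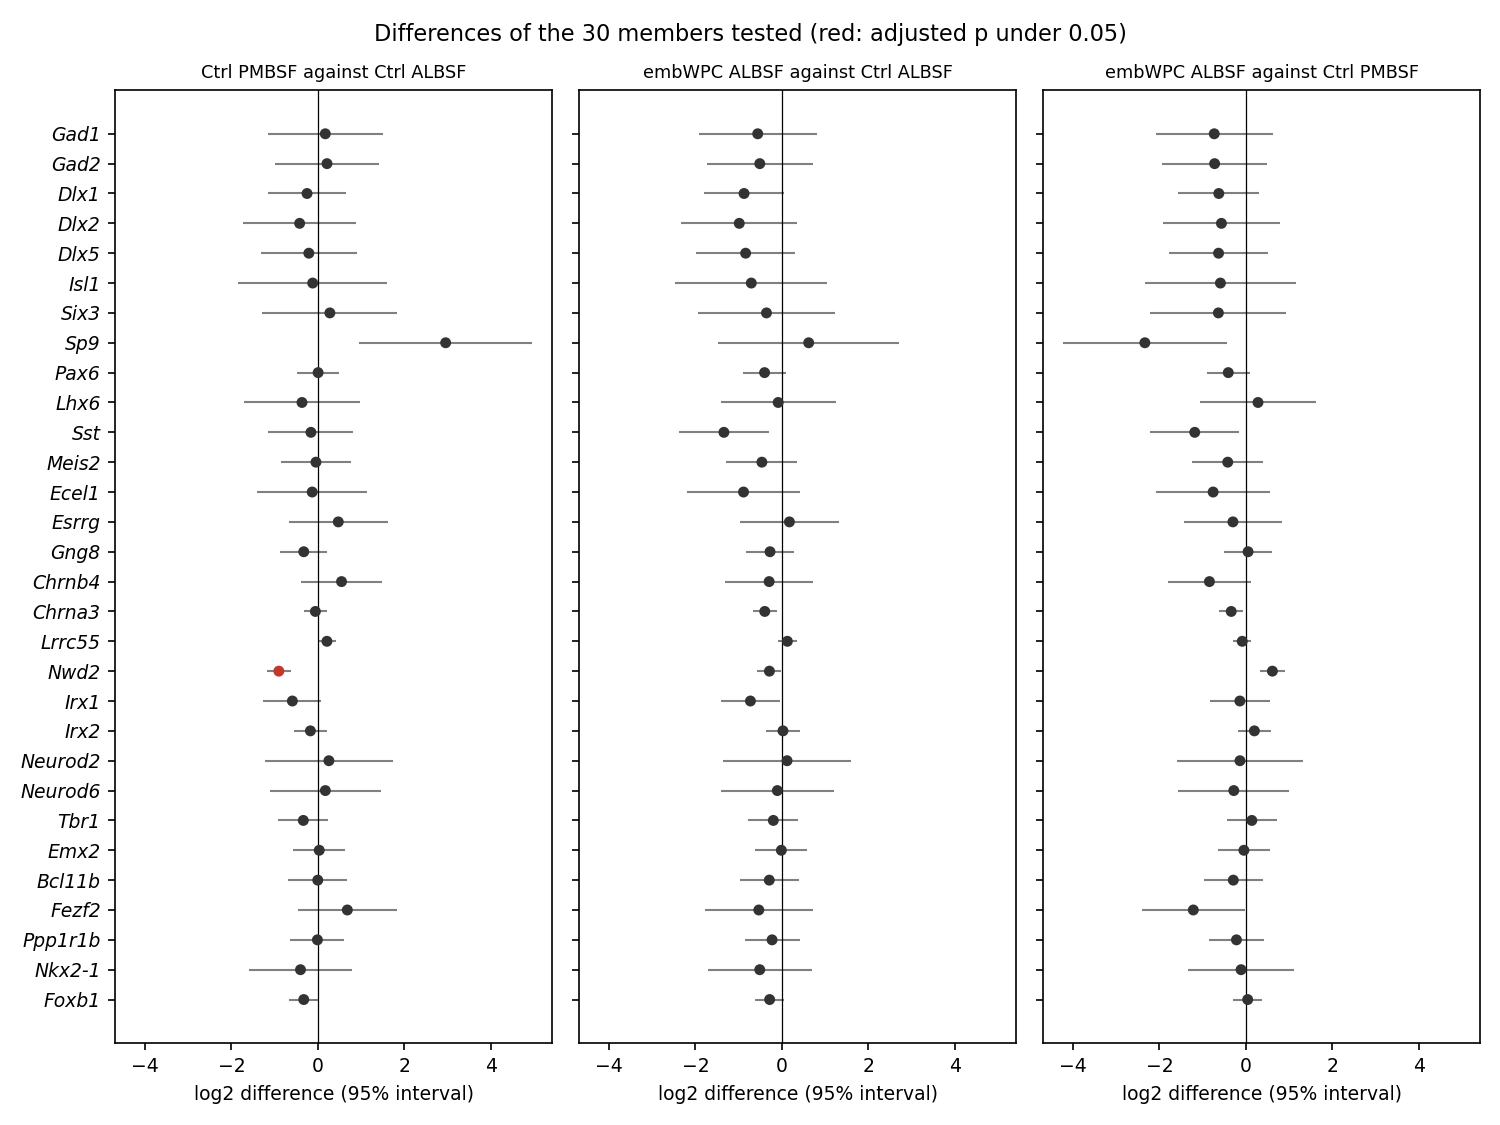
Log2 difference with its 95% interval (x axis) for the 30 members tested, in the 3 comparisons, from edgeR's fit of all 12 libraries. Nwd2 in Ctrl PMBSF against Ctrl ALBSF is the only point in red, and intervals of the prethalamic and GABAergic genes are wide, that of Isl1 in the control comparison running from -1.84 to 1.60.

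Other genes of inhibitory neurons, 16 in a companion list of which 10 were tested, gave 0 calls in each comparison by edgeR. At an unadjusted p under 0.05 there were 2, 3 and 1. Npy, the neuropeptide Y of many GABAergic cells, stood at 12.7, 10.1, 4.36 and 1.02 CPM in Ctrl ALBSF, 3.59, 22.0, 11.1 and 1.60 in Ctrl PMBSF, and 0.906, 2.55, 5.53 and 7.18 in embWPC ALBSF. Pvalb, the calcium-binding protein parvalbumin, ran from 0.331 CPM in Ctrl ALBSF 4 to 4.91 CPM in Ctrl PMBSF 2. Npy in Ctrl ALBSF 4 was above only embWPC ALBSF 1.

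The habenular genes behaved in the opposite way, with a summed level that spanned little over the 12 libraries. Their summed level was 70.1, 66.0, 66.5 and 69.3 CPM in Ctrl ALBSF, 55.7, 55.6, 60.5 and 61.6 in Ctrl PMBSF, and 61.7, 61.5, 61.4 and 63.5 in embWPC ALBSF. The highest library was only 1.26-fold the lowest. Every Ctrl ALBSF pool nevertheless lay above every pool of the other groups. By mean log2 CPM of the tested genes the groups overlapped. That level was 1.82 to 2.06 in Ctrl ALBSF, 1.68 to 1.84 in Ctrl PMBSF and 1.54 to 1.87 in embWPC ALBSF. Without Lrrc55, the most abundant member, the sums of the 3 groups did not overlap. They were then 42.55 to 48.07 CPM in Ctrl ALBSF, 27.16 to 33.22 in Ctrl PMBSF and 36.1 to 36.86 in embWPC ALBSF. Both of these sums hold Nwd2, described below. Without Nwd2 instead, the Ctrl ALBSF sums overlapped those of both other groups, so the sums do not show a difference of the whole set. Differences in the sums were not tested. The median coefficient of variation of the 7 genes tested was 16.8%, and 0 of the 7 were in the top 10% of genes.

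Most of that sum came from 3 genes. Lrrc55, a leucine-rich repeat protein that modulates calcium-activated potassium channels, stood at 27.4, 21.0, 23.9 and 21.3 CPM in Ctrl ALBSF, 23.1, 28.5, 27.3 and 29.4 in Ctrl PMBSF, and 25.5, 24.6, 24.7 and 27.4 in embWPC ALBSF. Chrna3, a nicotinic acetylcholine receptor subunit, stood at 14.6, 10.8, 11.2 and 10.8 CPM in Ctrl ALBSF, 13.9, 9.85, 11.2 and 10.6 in Ctrl PMBSF, and 8.39, 8.95, 8.84 and 9.88 in embWPC ALBSF. The Lrrc55 ranges overlapped, whereas all 4 embWPC ALBSF pools had less Chrna3 than any Ctrl ALBSF pool. The Chrna3 log2 difference of embWPC ALBSF was -0.39 ± 0.13 from Ctrl ALBSF and -0.34 ± 0.13 from Ctrl PMBSF, with adjusted p of 0.324 and 0.453 by edgeR. Of the 30 members, 2 had embWPC ALBSF pools all under Ctrl ALBSF, namely Chrna3 and Foxb1, against 2.7% of all genes. Chrna3 overlaps its neighbour Chrna5 on the other strand.

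Nwd2, which encodes a protein with NACHT and WD repeat domains, was the member that differed between the control territories. It stood at 21.4, 27.1, 23.8 and 31.0 CPM in Ctrl ALBSF, 13.3, 10.7, 16.6 and 14.7 in Ctrl PMBSF, and 20.2, 22.1, 21.0 and 21.4 in embWPC ALBSF. All 4 Ctrl PMBSF pools were under all Ctrl ALBSF and all embWPC ALBSF pools. The means were 25.8 ± 4.19 CPM in Ctrl ALBSF, 13.8 ± 2.48 in Ctrl PMBSF and 21.2 ± 0.775 in embWPC ALBSF (SD, n = 4 each). In the whisker territory Nwd2 fell by 0.90 ± 0.13 on the log2 scale, 1.87-fold, with an adjusted p of 0.00275 by edgeR. It passed in each of 16 alternative fits, with log2 differences of -0.996 to -0.798 and adjusted p of 6.4e-08 to 0.0115. Among all genes 0.811% were called lower there, and 3.62% had Ctrl PMBSF pools all under Ctrl ALBSF. Of the 30 members this held for Nwd2 alone.

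In the treated lip territory Nwd2 lay between the control territories. The log2 difference from Ctrl ALBSF was -0.29 ± 0.13 (adjusted p = 0.532, edgeR) and the ranges overlapped. That from Ctrl PMBSF was 0.62 ± 0.13 (adjusted p = 0.240, edgeR). The latter passed with DESeq2 (0.62, adjusted p = 0.0112) and without the count filter (0.62, adjusted p = 0.0143), and its groups did not overlap, which is so in the higher direction for 2.35% of all genes. Nwd2 was the 1 member of 30 with that separation. The gene overlaps Nwd2os on the opposite strand and Gm3687 on its own, so its counts may include theirs.

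The stretch before the Nwd2 start is shown as that of the member whose level separated the territories. It lies at chr5:63648853-63649102 on the plus strand in RefSeq's GRCm38.p6, and TAAT or ATTA, found at 1 place, is in capitals.
Nwd2: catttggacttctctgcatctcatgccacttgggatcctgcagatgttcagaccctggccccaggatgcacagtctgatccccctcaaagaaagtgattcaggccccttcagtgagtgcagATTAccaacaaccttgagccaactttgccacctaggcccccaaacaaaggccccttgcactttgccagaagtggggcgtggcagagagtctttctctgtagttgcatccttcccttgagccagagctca

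**Figure D5:**
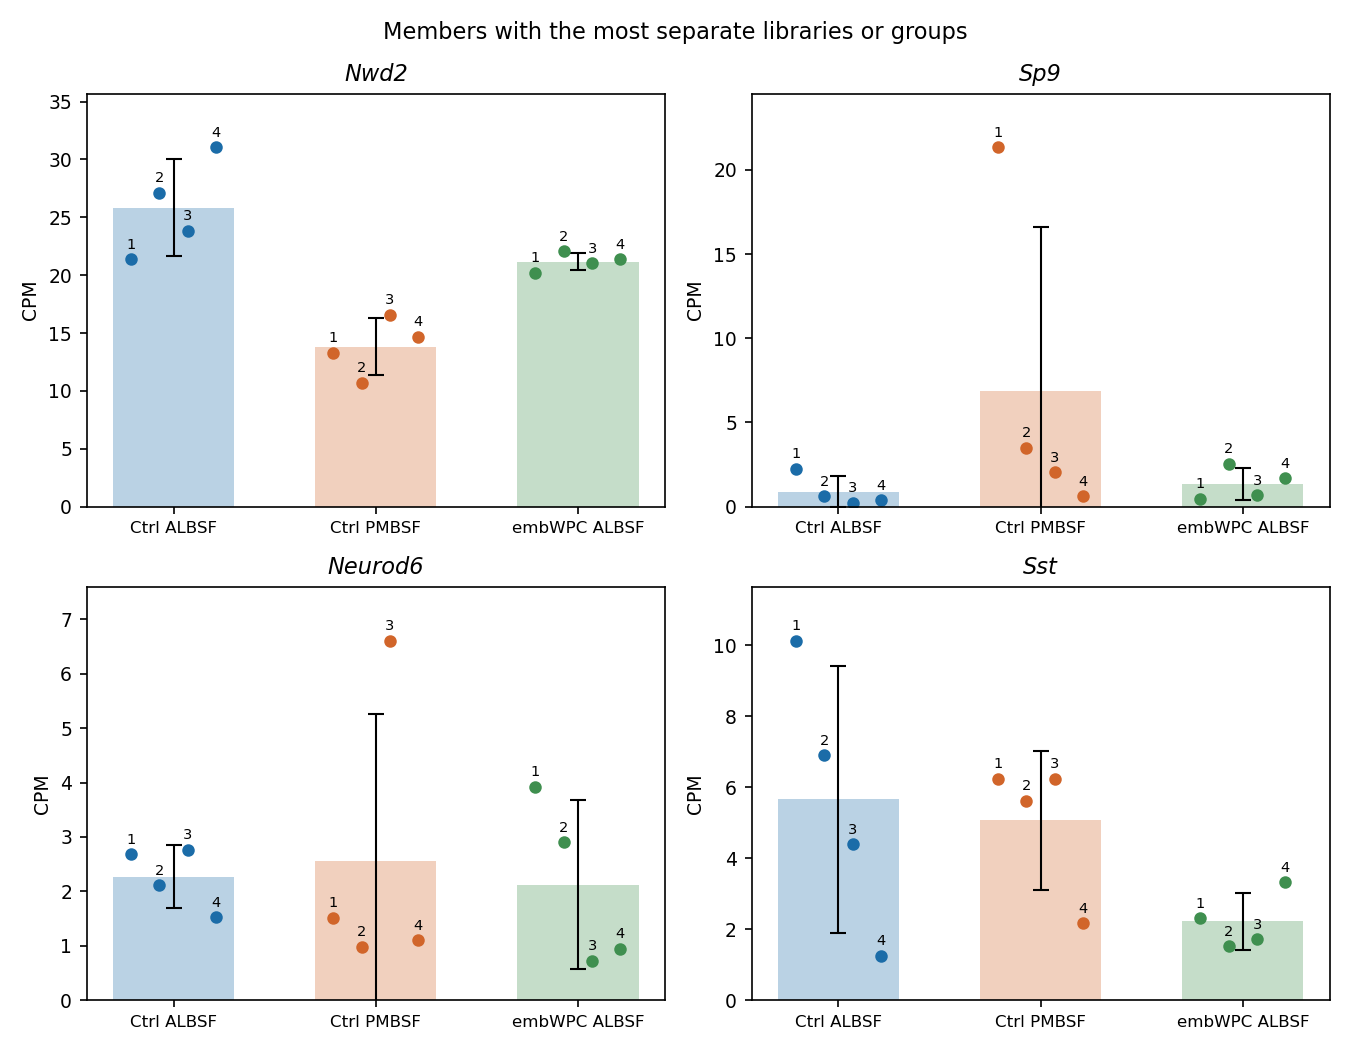
CPM by library for Nwd2, Sp9, Neurod6 and Sst; points are libraries with their pool number, bars the mean and whiskers 1 SD (n = 4). Nwd2 in Ctrl PMBSF (10.7 to 16.6 CPM) lies under both other groups (20.2 to 31.0 CPM), while the Ctrl PMBSF means of Sp9 and Neurod6 are raised by 1 pool each (21.3 and 6.61 CPM), and the Sst groups overlap.

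Of the Iroquois homeobox factors Irx1 and Irx2, Irx1 was the less even. Irx2 stood at 4.13, 4.57, 4.67 and 4.20 CPM in Ctrl ALBSF, 2.78, 3.74, 3.86 and 5.24 in Ctrl PMBSF, and 5.23, 4.23, 4.96 and 3.51 in embWPC ALBSF. Irx1 ran from 0.524 to 1.90 CPM, a 3.63-fold span, with means of 1.41 ± 0.377 in Ctrl ALBSF, 0.938 ± 0.266 in Ctrl PMBSF and 0.859 ± 0.341 in embWPC ALBSF (SD, n = 4 each). Its log2 difference of embWPC ALBSF from Ctrl ALBSF was -0.73 ± 0.32 with an adjusted p of 0.519 by edgeR, and the groups overlapped. Gng8, a G protein gamma subunit, stayed between 0.430 and 0.830 CPM and Chrnb4, the usual partner of Chrna3, between 0.138 and 0.644 CPM.

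Several habenular markers were close to absent, while others of the companion list were not. Tac2, the neurokinin B precursor, had 21 of its 31 counts in Ctrl PMBSF 2. In a companion list of habenular genes, the factor Pou4f1 ran from 0 to 0.157 CPM and the receptor Gpr151 from 0 to 0.196 CPM. In the same list Kctd12, a subunit of GABA-B receptors, averaged 35.7 CPM, Irx3 2.34, Tac1 1.91 and Nr4a2 1.39 CPM. The sum of the 8 members rests mostly on Lrrc55, Chrna3 and Nwd2. Per kilobase of exon Lrrc55 averaged 3.91, Chrna3 2.01, Nwd2 1.64 and Irx2 1.29 RPKM over the 12 libraries, against 0.0454 for Tac2. Of the 8 companion genes tested, 1 passed in the control comparison by edgeR. Nhlh2, a basic helix-loop-helix factor, rose by 1.05 ± 0.18 on the log2 scale in Ctrl PMBSF with an adjusted p of 0.00821. Its levels were 40.6, 43.7, 39.4 and 62.6 CPM in Ctrl ALBSF, 80.5, 106, 83.0 and 116 in Ctrl PMBSF, and 78.9, 57.5, 86.3 and 51.6 in embWPC ALBSF, a direction opposite to that of Nwd2. The sum of the 12 companion genes also went opposite to the member sum. It was 73.41 to 113.6 CPM in Ctrl ALBSF, 114.7 to 168 in Ctrl PMBSF and 90.99 to 140 in embWPC ALBSF. Without Nhlh2 it was 30.77 to 51.75 CPM in Ctrl ALBSF and 34.17 to 60.12 in Ctrl PMBSF, which overlap.

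The telencephalic genes were low, and 1 pool stood out. Their summed level was 12.5, 11.1, 10.6 and 7.74 CPM in Ctrl ALBSF, 8.10, 8.44, 20.4 and 7.07 in Ctrl PMBSF, and 14.1, 9.50, 7.12 and 7.49 in embWPC ALBSF. Ctrl PMBSF 3 was the highest of all 12, followed by embWPC ALBSF 1, and the groups overlapped. These are not the libraries that led the prethalamic and GABAergic set.

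Neurod6 and Neurod2, basic helix-loop-helix factors of cortical excitatory neurons, carried this pattern. Neurod6 stood at 2.68, 2.11, 2.77 and 1.52 CPM in Ctrl ALBSF, 1.51, 0.982, 6.61 and 1.10 in Ctrl PMBSF, and 3.92, 2.91, 0.728 and 0.943 in embWPC ALBSF. Neurod2 stood at 1.39, 1.23, 1.18 and 0.793 CPM in Ctrl ALBSF, 0.783, 0.430, 3.27 and 0.974 in Ctrl PMBSF, and 2.88, 1.55, 0.132 and 0.472 in embWPC ALBSF. Ctrl PMBSF 3 and embWPC ALBSF 1 were on top for both, and embWPC ALBSF 3 was lowest. Their coefficients of variation, 57.3% and 66.3%, were more than 2 times the trend, which held for none of the other 5 genes tested.

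The remaining telencephalic members were steadier. Bcl11b, a zinc finger factor of deep-layer cortical and striatal neurons, stood at 3.41, 2.50, 2.7 and 2.48 CPM in Ctrl ALBSF, 2.48, 1.69, 4.87 and 2.01 in Ctrl PMBSF, and 3.56, 1.65, 2.05 and 1.83 in embWPC ALBSF, and it too peaked in Ctrl PMBSF 3. Tbr1, a T-box factor of early cortical neurons, stood at 2.02, 1.62, 1.31 and 1.06 CPM in Ctrl ALBSF, 0.972, 1.29, 1.74 and 0.754 in Ctrl PMBSF, and 1.48, 1.26, 1.23 and 1.28 in embWPC ALBSF. Emx2, a homeobox factor of the dorsal telencephalon, stood at 1.95, 2.08, 1.76 and 1.02 CPM in Ctrl ALBSF, 1.43, 2.12, 1.76 and 1.66 in Ctrl PMBSF, and 1.24, 1.07, 2.12 and 2.31 in embWPC ALBSF. The last 2 had no pool far from the others. Fezf2, a zinc finger factor of subcerebral projection neurons, reached 1.46 CPM in Ctrl PMBSF 3 and lay between 0.105 and 0.737 CPM elsewhere. Ppp1r1b, the striatal phosphoprotein DARPP-32, ran from 0.408 to 0.809 CPM, and Emx1 was too low to test at 0 to 0.430 CPM.

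Of the 7 telencephalic genes tested, 0 passed in any comparison by edgeR, DESeq2 or limma-voom. At an unadjusted p under 0.05 there were 0, 0 and 1, the last being Fezf2 in embWPC ALBSF against Ctrl PMBSF (-1.22 ± 0.56, adjusted p = 0.524, edgeR). The medians were 0.03, -0.20 and -0.22, and the first was -0.42 without Ctrl PMBSF 3. Neurod6 was 0.17 ± 0.60 higher in Ctrl PMBSF than in Ctrl ALBSF, and -0.91 without Ctrl PMBSF 3. In embWPC ALBSF against Ctrl PMBSF it was -0.28 ± 0.60, and 0.81 without that pool.

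A companion list of 15 telencephalic genes, 14 of them tested, gave 1 call by edgeR. Drd1, the dopamine receptor of the striatum and of deep cortex, rose by 1.63 ± 0.37 in Ctrl PMBSF against Ctrl ALBSF with an adjusted p of 0.0381. Its levels were 1.52, 1.72, 1.25 and 0.496 CPM in Ctrl ALBSF, 3.78, 6.04, 3.89 and 1.76 in Ctrl PMBSF, and 1.27, 1.42, 2.02 and 1.78 in embWPC ALBSF. All 4 Ctrl PMBSF pools were above all Ctrl ALBSF pools, also the 3 without the high telencephalic sum.

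Of the hypothalamic genes Foxb1 alone was clearly present. Foxb1, a forkhead factor of the mammillary region and early diencephalon, stood at 6.75, 6.58, 6.12 and 6.68 CPM in Ctrl ALBSF, 3.75, 4.57, 6.63 and 5.90 in Ctrl PMBSF, and 5.30, 4.68, 5.63 and 5.87 in embWPC ALBSF. It was steady in Ctrl ALBSF, lower in Ctrl PMBSF 1 and 2, and under every Ctrl ALBSF pool in embWPC ALBSF. The log2 differences were -0.33 ± 0.16 for Ctrl PMBSF and -0.28 ± 0.16 for embWPC ALBSF against Ctrl ALBSF, with adjusted p of 0.446 and 0.612 by edgeR. Nkx2-1, a homeobox factor of the ventral hypothalamus and ventral telencephalon, ran from 0.0921 to 0.596 CPM, and its lowest values were at the level of 3 counts.

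The other 5 hypothalamic factors were at or near 0. Otp and Sim1, which specify neuroendocrine neurons, reached at most 0.224 and 0.140 CPM, both in Ctrl PMBSF 3. Nkx2-4 reached at most 0.165 CPM, and Hmx2 and Hmx3 had no more than 1 count in any library. In a companion list of 20 hypothalamic genes, 7 were tested and 0 passed in any comparison by edgeR, with 0, 0 and 2 at an unadjusted p under 0.05. Avp, the vasopressin precursor, stood at 2.45, 1.20, 2.63 and 2.61 CPM in Ctrl ALBSF, 1.54, 0.0307, 0.280 and 35.4 in Ctrl PMBSF, and 0.470, 1.36, 0.166 and 1.75 in embWPC ALBSF. Its companion hormone gene Oxt, oxytocin, had 1.29 CPM in the same Ctrl PMBSF 4 and at most 0.331 elsewhere. The list of 20 summed to 44.3 CPM in that pool, but without Avp to 8.89 CPM, against 6.27 to 10.65 CPM in the other libraries.

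Of the 4 sums, those of the prethalamic and GABAergic, habenular and hypothalamic sets were all highest in Ctrl ALBSF 1 (90.0, 70.1 and 7.61 CPM). Within embWPC ALBSF all 3 were highest in pool 4 (62.6, 63.5 and 6.63 CPM). By single genes the habenular set did not follow there: pool 4 was highest for 2 and lowest for 4 of the 7 genes tested. By mean log2 CPM its habenular level, 1.54, was the lowest of the 12 libraries. The hypothalamic sum was mostly Foxb1. The telencephalic sum was highest in Ctrl PMBSF 3. Avp and Oxt, which are not members, were highest in Ctrl PMBSF 4. The companion hypothalamic sum without Avp was not raised in that pool. Markers of the meninges, another border tissue, were high in some Ctrl PMBSF pools. A list of 9 meningeal fibroblast genes summed to 15.3, 90.3, 36.5 and 29.9 CPM in Ctrl PMBSF, 17.7 to 19.0 in Ctrl ALBSF and 12.2 to 13.3 in embWPC ALBSF. Ctrl PMBSF 2 stood highest, and Ctrl PMBSF 1 lay under every Ctrl ALBSF pool. Of the 9 genes, 0 passed and 9 had a positive difference in the control comparison by edgeR, with 7 at an unadjusted p under 0.05. In embWPC ALBSF 0 passed and 9 were lower against either control group. The median log2 difference was -0.76 against Ctrl ALBSF and -2.27 against Ctrl PMBSF, with 1 and 8 at an unadjusted p under 0.05 by edgeR. The part of the meningeal genes in the Nwd2, Nhlh2 and Drd1 differences was not tested.

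Of the border levels, the prethalamic and GABAergic and the telencephalic were also fitted, each in turn as a covariate. The covariate was the mean log2 CPM of a set's tested genes in each library. Between the control territories these sets had median log2 differences of only -0.08 and 0.03. The habenular, hypothalamic and meningeal levels were not fitted, so their part in the Nwd2 difference was not tested. With the prethalamic and GABAergic level in the fit, the Nwd2 difference between the control territories was -0.87 with an adjusted p of 0.00260 by edgeR. With the telencephalic level it was -0.90 with an adjusted p of 0.00476. Over all genes, calls in the control comparison numbered 285 with the first covariate and 284 without, of which 263 were shared. In embWPC ALBSF against Ctrl ALBSF they numbered 24 with it and 11 without, of which 10 were shared, and 1 with the telencephalic level.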

How the data were processed

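The members and companion lists were chosen with earlier results of these data known, and no test over a list was made. Raw counts per Ensembl gene were deposited for each of the 12 libraries. Per the submitters' processing notes, the authors aligned reads with STAR 2.7.9a to GRCm39 and assigned them to Ensembl release 104 genes with featureCounts (Subread 2.0.1). Another build, mm10, is named in those notes too. Strand handling, multi-mapping and pair settings are not given in the sources used here, so counts of overlapping genes are uncertain. Symbols came from GENCODE mouse release 39, which matched 54749 of 55359 genes. Pairwise chi-square values of the libraries were at least 12.6 per degree of freedom, so none had been entered again. Nothing says whether pools shared litters or extraction days, and the tests set group differences against the spread between pools.

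All 12 libraries were fitted together in R 4.3.3 with edgeR 4.0.16 (filterByExpr by group, TMM, quasi-likelihood test), with group as the only term. Benjamini-Hochberg adjustment ran over 17501 genes, and calls were made at an adjusted p under 0.05. The common biological coefficient of variation was 15.8%. A prior count of 2 entered log2 CPM values only. RPKM used the merged exon length of each gene. The fit was tested on simulated counts. Members with a mean of at least 1 CPM (23 of 40) or called are given by library where results turn on them. From each companion list up to 3 called genes with the smallest p, otherwise up to 2 abundant ones, were to be named; Npy, Pvalb, Pou4f1, Gpr151, Avp and Oxt were chosen after their values were seen. Some genes of the companion lists are not reported here. Alternatives were DESeq2 1.42.0, RLE scaling, no count filter, limma 3.58.1 voom with quality weights, fits of 8 libraries, a replicate block, leaving out each library, and the 2 covariates.

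Labels number the pools 1 to 4 in each group. Deviations from the group means of same-numbered control pools correlated at 0.392, 0.202, 0.327 and 0.398, all over 0.1, so the numbers were taken to pair the 8 control libraries. Those of embWPC ALBSF did not pair with Ctrl ALBSF (-0.145 to 0.0367) or with Ctrl PMBSF (-0.0968 to 0.0518).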

Additional observations from a re-analysis of the deposited data

Results flagged for a closer look

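Within groups of 4 pools, a value was singled out where its gap to the nearest pool, over the range of the group, exceeded Dixon's 95% critical value for 4 values. Of 81 such checks 9 did so. The critical value flags about 1 in 20 groups of independent, normally distributed values, which these CPM values need not be. The 9 therefore cannot be read as more than chance would give. In embWPC ALBSF, pool 4 was the high one for the prethalamic and GABAergic sum (62.6 CPM, next 25.5), for Gad1 (9.28 CPM, next 3.20), for Isl1 (6.81 CPM, next 1.49) and for the habenular sum (63.5 CPM, next 61.7). The last gap is small in absolute terms. In Ctrl PMBSF, pool 1 was high for Sp9 (21.3 CPM, next 3.50), and pool 3 for Neurod6 (6.61 CPM, next 1.51) and the telencephalic sum (20.4 CPM, next 8.44). Pool 4 was low there for Sst (2.17 CPM, next 5.62). In Ctrl ALBSF, pool 1 was high for Chrna3 (14.6 CPM, next 11.2). Sums and their members are not independent checks.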

How the results depend on the processing

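Of 1434 values of single members under alternatives, 1405 kept their side of the threshold. These either kept their sign or changed it with a shift no larger than the SE of the main fit. Another 25 changed sign with a larger shift, and 4 passed where they had not (Sp9 and Nwd2, given above). In all, 130 changed sign without having been called, and changes of size alone were not counted. The count of genes called is less steady. In Ctrl PMBSF against Ctrl ALBSF it was 284, but 527 with DESeq2, 443 with limma-voom and 857 with the replicate block, and 127 to 249 when each library was left out: 160, 127 and 155 without Ctrl ALBSF 2, 3 and 4, and 163 without Ctrl PMBSF 2. Members called there were 1, but 2 (Nwd2 and Sp9) with no count filter and with the replicate block, and the pairing changed no other member's call. In embWPC ALBSF against Ctrl ALBSF 11 genes became 178 with DESeq2, 121 with no filter, 75 with limma-voom, 1 with the replicate block, and 24 and 1 with the prethalamic and telencephalic covariates, which were added after seeing the data. Leaving out a library gave 1 to 22 there: 22, 4, 1 and 3 without Ctrl ALBSF 1 to 4, and 2 and 1 without embWPC ALBSF 1 and 3. In embWPC ALBSF against Ctrl PMBSF 1 gene became 74 with DESeq2, 72 with no filter, 0 with the replicate block, and 1 to 3 without a library (3 without Ctrl PMBSF 1), and members called became 1 (Nwd2) with DESeq2 and with no filter. The hypothalamic sum spanned 1.82-fold over the libraries, and 8.66-fold without Foxb1. Causes of these shifts were not tested. With 3 counts at 0.0786 to 0.105 CPM, the 10 members under the count filter were fitted only without it, where 0 of them passed.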

Other observations

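Among tissues outside the neuron sets, the choroid plexus list of 6 genes summed to 102 CPM in Ctrl ALBSF 2, 24.7 CPM in Ctrl PMBSF 2 and 4.14 to 9.39 CPM in embWPC ALBSF. Both high values were mostly Ttr, the thyroid hormone carrier transthyretin, without which they were 3.73 and 2.7 CPM. Of the thalamic relay list, 2 of 14 genes rose and 3 fell in Ctrl PMBSF against Ctrl ALBSF by edgeR. Rorb, a nuclear receptor of sensory relay neurons, fell by 1.17 ± 0.12 on the log2 scale with an adjusted p of 0.000293. Sox10, an oligodendrocyte lineage factor, fell by 0.67 ± 0.13 with an adjusted p of 0.0189 by edgeR.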
